A study of Homo sapiens with 6 samples.

Results

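The serpins are a superfamily of proteins that share a fold, and most inhibit proteases. Every row of the count table whose gene symbol begins with SERPIN was taken, which gave 34 of 19470 rows. The text describes 33 of them, and the letter after SERPIN is the clade (10 rows of clade A, 13 of clade B, 2 each of clades E, F and I, and 1 each of clades C, D, G and H). The libraries came from wild-type A549 cells, an established human lung adenocarcinoma line. RNA sequencing compared 3 libraries of cells treated to induce dormancy with 3 libraries of cells activated by osteoclast conditional medium, that is medium from osteoclasts, the bone-resorbing cells. The sources used here state neither the means of inducing dormancy nor the base medium of either group, so an effect of medium and an effect of state cannot be told apart. They also do not say whether replicates were separate cultures. The p-values therefore describe the spread among 3 libraries, and that spread may be technical only.

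An inhibitory serpin offers an exposed reactive centre loop to its target protease. When the protease cuts the loop, the serpin changes shape and traps the protease in a covalent complex, which consumes both proteins. Clade A and its relatives C, D, F and G are mostly secreted plasma proteins made in liver, clade B serpins lack a classical signal peptide and act largely inside cells, and clade E serpins act on proteases of coagulation and plasminogen activation outside cells. A few members inhibit nothing and serve as hormone carriers or, in the case of SERPINH1, as a collagen chaperone. The family has been studied in lung as the shield against neutrophil proteases and in carcinoma for its part in invasion and survival.

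Total counts lay between 34128471 and 36667725 per library, and libraries of a group correlated at 0.995 to 0.997 across genes on the log2 scale. Levels are in CPM, counts scaled to a common library total with TMM factors, which align the bulk of genes between libraries. The labelled cell type was checked against markers. Of 15 A549 and airway epithelial markers, 12 had enough counts to be tested, 6 rose (ALDH1A1 and CDH1 most) and 3 fell (EPCAM most). The EPCAM call was lost without any 1 of dormant replicates 1 and 2 and activated replicates 2 and 3, at an adjusted p of up to 0.162. The groups overlapped for EPCAM, for KRT7, which also fell, and for AKR1B10, which rose. Among all tested genes, to be set beside this list and those below, 73.7% were called, with 36.5% higher and 37.2% lower. The summed level of the 15 markers was 10429 to 10869 CPM in the dormant libraries and 18298 to 20121 CPM in the activated libraries. KRT8 and AKR1B10 were abundant in both groups, and the surfactant genes SFTPB and SFTPC were at 5 counts or fewer per group. CDKN2A and CDKN2B, reported as deleted in A549, had 1 count each over all 6 libraries, while MTAP, on the same list, went from 10.5 ± 0.623 to 14.2 ± 0.805 CPM. Because the activating medium came from osteoclasts, markers of bone and blood cells were read as well. Of 14 osteoclast markers 10 were tested, 4 rose (ITGB3 and MMP9 most) and 4 fell (ATP6V0D2 most). Their summed level was 129 to 132 CPM in the dormant libraries and 453 to 541 CPM in the activated libraries. Most of that gap lay in ITGB3 (5.88 ± 0.609 and 265 ± 41.4 CPM) and TCIRG1 (67.8 ± 1.48 and 197 ± 2.50 CPM). TCIRG1 is named here after its values were seen. Of 16 myeloid markers 6 were tested, 6 rose (CSF1R and LAPTM5 most) and 0 fell. Their summed level was 144 to 159 CPM in the dormant libraries and 178 to 187 CPM in the activated libraries. Most of that sum was CD68 (135 ± 5.75 and 152 ± 3.82 CPM), named here after its values were seen. Of 12 osteoblast and stromal markers 5 were tested, 4 rose (DCN and PDGFRA most) and RUNX2 fell. The summed level of these 12 was 19.9 to 23.6 CPM in the dormant libraries and 19.3 to 21.3 CPM in the activated libraries. Listed at 0 counts in every library were CALCR, DCSTAMP and OCSTAMP of osteoclasts, TYROBP, AIF1, C1QA, C1QB and C1QC of myeloid cells, and IBSP and POSTN of stroma. MMP9, CSF1R, LAPTM5, DCN and PDGFRA were tested only because of their activated libraries, and ATP6V0D2 only because of its dormant ones, as was ACP5, another osteoclast marker that fell, named here after its values were seen. The part of these markers in the results was not tested.

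Most serpins that could be measured rose in activated cells, and the steepest rises were in clade B. Of the 33 members, 14 had enough counts to be tested, 8 had 0 counts in all libraries and 11 had a few counts that did not pass the filter. Among the 14 tested, 11 rose, 2 fell and 1 was not called (quasi-likelihood test of edgeR, called at an adjusted p under 0.05). Among all 13336 tested genes the share called was 73.7%, with 36.5% higher and 37.2% lower. In bulk RNA, fewer cells of a type and less RNA per cell cannot be told apart. A called change of at least 2-fold in either direction was found for 7 members, 5 of them higher, against 22.2% of all tested genes. The libraries of both groups did not overlap for 13 of the 14, against 76.5% of all tested genes. The median log2 fold change of the tested serpins was 0.76, against -0.02 over all tested genes. SERPINB11 cleared the filter on its activated libraries alone and so could not have been called lower. These counts describe the detected members and not the superfamily as a whole. A count of 0 allows a level of up to 0.0772 to 0.0914 CPM per library. Scaling by total counts in place of TMM factors moved the median of all genes to -0.16 and left all 11 rises and both falls in place.

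**Figure D1:**
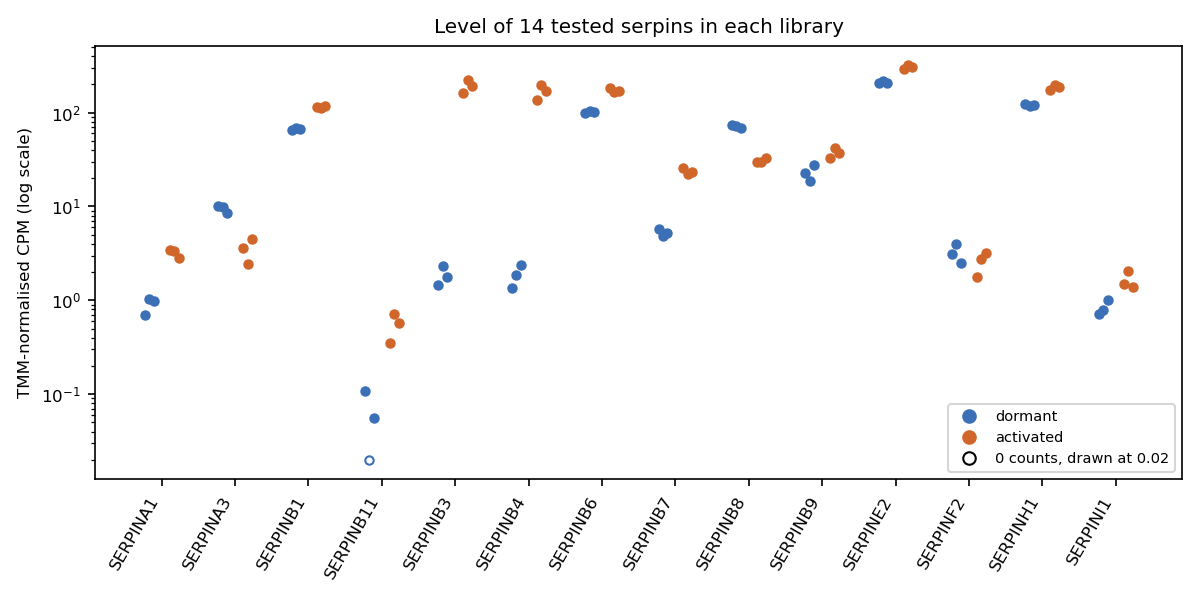
Level of the 14 tested serpins in each library, as TMM-normalised CPM on a log axis, with 1 point per library and 3 libraries per group. SERPINE2 stands highest in both groups, SERPINB3 and SERPINB4 move from a few CPM to over 136 CPM, and only SERPINF2 has overlapping groups.

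**Figure D2:**
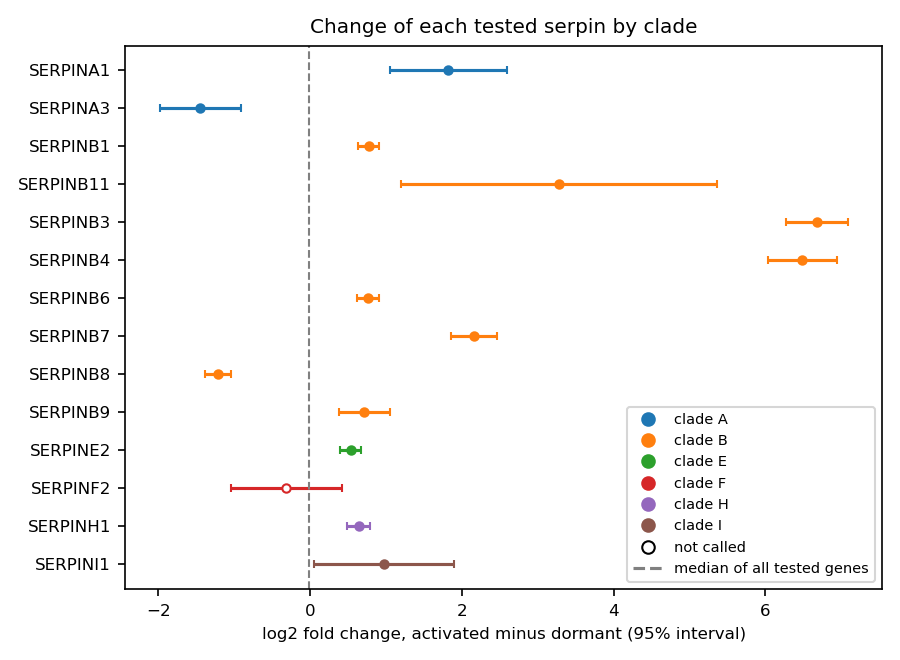
Log2 fold change, activated minus dormant, of the 14 tested serpins with 95% intervals, coloured by clade. All clade B members but SERPINB8 lie to the right of the dashed line, which marks the median of all tested genes at -0.02, and clade A has 1 member on either side of it.

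SERPINE2, protease nexin, which blocks thrombin and urokinase at the cell surface, was the most abundant serpin described here (chromosome 2, 223975045 to 224039286, GRCh38). Its levels were 207, 217 and 209 CPM in the dormant libraries and 290.4, 319 and 308 CPM in the activated libraries. All activated libraries lay above all dormant libraries, with a 1.45-fold change (log2 fold change 0.54 ± 0.05 SE, adjusted p = 1.73e-07). On the FPKM scale, which corrects for gene length, SERPINE2 ranked 642 among the rows of the table in the dormant group and 520 in the activated group. SERPINE3, a little-studied relative, had 1 count in each group.

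Of the listed plasminogen and coagulation proteases, cofactors and receptors, 20 of 27 genes had enough counts to be tested, 12 rose, 4 fell and 4 did not pass (median log2 fold change 0.94). Among all tested genes 36.5% were higher and 37.2% lower. PLAU, which encodes urokinase, went from 137 ± 3.90 to 696 ± 96.1 CPM (a log2 fold change of 2.34 ± 0.08, SE, adjusted p = 2.70e-12) and THBD, the thrombin receptor thrombomodulin, from 46.1 ± 5.19 to 239.7 ± 23.3 CPM (a log2 fold change of 2.38 ± 0.08, SE, adjusted p = 3.25e-12). PROC, the zymogen of activated protein C, had the largest fall of the list, from 0.870 ± 0.191 to 0.335 ± 0.162 CPM (a log2 fold change of -1.37 ± 0.47, SE, adjusted p = 0.0163), a call that was lost without dormant replicate 3 (adjusted p = 0.0777) or activated replicate 2 (adjusted p = 0.0774). PROC passed the filter in 3 dormant and 2 activated libraries, and so was tested because of its dormant ones. The FPKM ratio of SERPINE2 to PLAU was 1.40, 1.55 and 1.44 in the dormant libraries and 0.467, 0.389 and 0.414 in the activated libraries. The inhibitor transcript stood above that of the protease in each dormant library and below it in each activated library (two-sided exact permutation p = 0.1, the smallest p the design allows, and 0.1 adjusted over 3 such ratios of a serpin to another gene). PLAU was named for the size of its rise. The separation of the ratio followed from the changes of both genes given above, so its p-value adds no support. Plasminogen itself (PLG) had 0 counts in all libraries.

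The steepest change of the superfamily was in SERPINB3 and SERPINB4, neighbouring genes named squamous cell carcinoma antigens after the tumours in which their proteins were found. SERPINB3 inhibits cysteine proteases such as cathepsins L, K and S, and SERPINB4 inhibits serine proteases such as cathepsin G and chymase. The genes lie on the same strand (SERPINB3 at chromosome 18, 63655197 to 63661893 and SERPINB4 at 63637259 to 63644256). The 250 bases upstream of each start are shown because they make plain how nearly the copies agree, with capitals marking the bases that differ (GRCh38.p14, RefSeq, chr18:63661894-63662143, minus strand and chr18:63644257-63644506, minus strand, written 5′ to 3′ on the gene's strand).
SERPINB3: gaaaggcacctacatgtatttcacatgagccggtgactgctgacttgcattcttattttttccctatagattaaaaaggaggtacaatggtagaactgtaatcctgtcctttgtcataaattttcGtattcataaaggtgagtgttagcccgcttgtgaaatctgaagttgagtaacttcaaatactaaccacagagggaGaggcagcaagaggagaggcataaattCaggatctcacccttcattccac
SERPINB4: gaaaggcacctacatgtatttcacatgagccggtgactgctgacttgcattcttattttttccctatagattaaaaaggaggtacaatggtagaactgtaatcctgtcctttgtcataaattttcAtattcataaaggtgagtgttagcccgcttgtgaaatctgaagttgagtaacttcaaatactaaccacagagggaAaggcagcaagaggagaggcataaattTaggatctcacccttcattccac
These sequences matched at 247 of 250 positions (98.8%) without a gap.

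The longest coding transcripts of the pair in GENCODE release 29 matched at 95.7% of 1749 aligned positions, with 75 mismatches. Of all 50-base windows (stretches that an unpaired read of that length could cover) of the SERPINB3 transcript, 23.9% occurred unchanged in SERPINB4, while for 100-base windows the share was 3.40% and for 150-base windows 0%. The sources used here give no read length. How far reads could be assigned to 1 copy therefore cannot be stated, and the separate values of the pair are uncertain.

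SERPINB3 had 1.47, 2.34 and 1.76 CPM in the dormant libraries and 160.3, 222 and 190.3 CPM in the activated libraries. SERPINB4 had 1.36, 1.88 and 2.40 CPM in the dormant libraries and 137, 197 and 171 CPM in the activated libraries. For each gene the lowest activated library was more than 50 times the highest dormant library. The change was 102-fold for SERPINB3 (log2 fold change 6.67 ± 0.15 SE, adjusted p = 3.42e-14) and 89.7-fold for SERPINB4 (log2 fold change 6.49 ± 0.16 SE, adjusted p = 1.13e-13). Their summed level does not depend on how counted reads were split between the pair, though reads that fitted both copies may not have been counted. It was 2.83, 4.22 and 4.17 CPM in dormant and 297, 419 and 361 CPM in activated libraries.

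Counts divided about evenly between the copies in both groups. The ratio of SERPINB3 to SERPINB4 counts was 1.08, 1.25 and 0.733 in the dormant libraries, from 51 to 91 counts per gene, and 1.17, 1.12 and 1.11 in the activated libraries, from 4682 to 7691 counts. The exact 95% binomial interval of every activated library lay above 1, with a lowest bound of 1.07, while that of every dormant library included 1. The mean log2 ratio was -0.01 ± 0.40 (SD, n = 3) in dormant and 0.18 ± 0.04 in activated libraries, a difference of 0.19 (two-sided exact permutation test, p = 0.7, where the smallest p that 3 against 3 libraries allow is 0.1). A difference in the split was not detectable. The difference was -0.031 without dormant replicate 3.

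**Figure D3:**
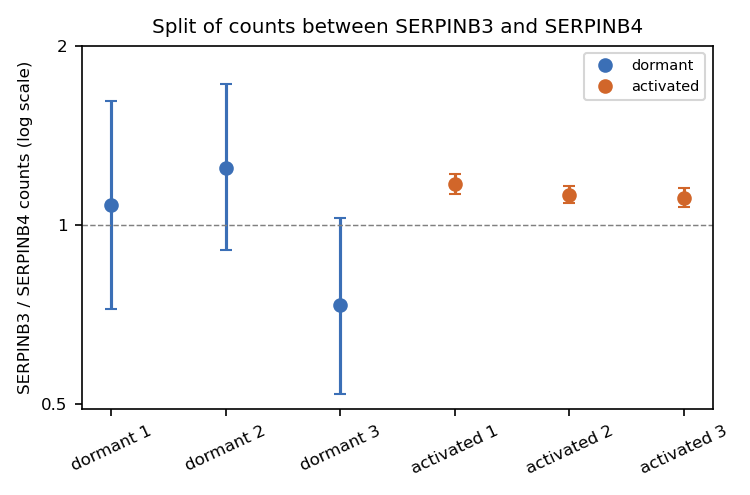
Ratio of SERPINB3 to SERPINB4 counts in each library on a log axis, with exact 95% binomial intervals that cover counting error only. The activated libraries sit between 1.11 and 1.17 with narrow intervals, and the dormant libraries scatter on both sides of 1 with wide ones.

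Because SERPINB3, SERPINB4 and several neighbours are typical of squamous epithelium, 20 squamous markers were read beside them. Their summed level was 14.2 to 15.6 CPM in the dormant libraries and 31.2 to 40.1 CPM in the activated libraries. Of the list, 7 genes were tested, 4 rose, 1 fell and 7 had 0 counts in all libraries, among them KRT5, KRT13, KRT14 and DSG3. The shares of all tested genes were 36.5% higher and 37.2% lower. KRT6A had 0 dormant and 190 activated counts and S100A9 0 and 335, and both were tested only because of their activated libraries. TGM1, which cross-links the cornified envelope, fell from 0.525 ± 0.0600 to 0.0779 ± 0.0438 CPM (adjusted p = 0.00124) and was tested only because of its dormant libraries. TP63, a regulator of squamous and basal cells that is named here after its values were seen, went from 1.48 ± 0.154 to 16.5 ± 3.27 CPM (a log2 fold change of 3.48 ± 0.18, SE, adjusted p = 1.85e-10). The part of these genes in the change of SERPINB3 and SERPINB4 was not tested.

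SERPINB7, megsin, known from kidney mesangium and the outer skin, lies in the same cluster and rose as well. It had 5.77, 4.89 and 5.26 CPM in the dormant libraries and 25.5, 22.1 and 23.3 CPM in the activated libraries. The groups were well apart, with a 4.46-fold change (log2 fold change 2.16 ± 0.11 SE, adjusted p = 1.64e-10). SERPINB11, which is thought not to inhibit proteases in humans, lies between SERPINB3 and SERPINB7 and rested on counts of 4, 0 and 2 in dormant and 12, 25 and 19 in activated libraries. Its fitted change was 9.69-fold (log2 fold change 3.28 ± 0.75 SE, adjusted p = 0.00115), and the ratio of summed counts was 10.3 (exact 95% binomial interval 4.44 to 29.2). Without dormant replicate 1 the log2 fold change was 4.19, and without dormant replicate 2 it was 2.70. In GENCODE a SERPINB11 transcript runs across SERPINB3 on the opposite strand, and it held 29% of the 150-base windows of the SERPINB3 transcript. The sources used here do not say whether counting used strand. Reads of the abundant SERPINB3 and of SERPINB11 may then not be told apart, so the SERPINB11 value is uncertain. SERPINB3 may likewise have lost reads from the shared stretch. The longest coding transcript of SERPINB11 itself shared 0% of its 150-base windows with other genes.

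SERPINB8 was the 1 clade B member that fell. It inhibits furin and trypsin-like proteases in the test tube and lies at the far end of the same cluster (chromosome 18, 63970081 to 64019779). Its levels were 73.1, 71.7 and 69.1 CPM in the dormant libraries and 30.0, 29.7 and 32.5 CPM in the activated libraries. Every activated library was far below every dormant library, a 2.32-fold fall (log2 fold change -1.21 ± 0.06 SE, adjusted p = 1.37e-10). FURIN, the proprotein convertase, rose from 139.6 ± 3.09 to 233 ± 7.37 CPM (adjusted p = 3.05e-09). Of the SERPINB8 transcript's 100-base windows, 12.4% were also found in the neighbouring gene HMSD on the same strand or in an unnamed gene on the opposite strand, and HMSD itself was at 0.111 and 0.0773 CPM.

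The 250 bases upstream of SERPINB8 are shown because they held matches to 4 of 5 short motifs searched, more than any other tested serpin (GRCh38.p14, RefSeq, chr18:63969831-63970080, plus strand, written 5′ to 3′).
SERPINB8: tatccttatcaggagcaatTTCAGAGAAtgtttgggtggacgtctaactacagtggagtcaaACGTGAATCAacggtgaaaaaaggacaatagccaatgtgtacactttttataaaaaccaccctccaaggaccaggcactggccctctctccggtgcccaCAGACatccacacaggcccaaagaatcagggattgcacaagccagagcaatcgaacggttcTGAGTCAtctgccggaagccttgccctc
Capitals mark, in order from the 5′ end, a STAT-type match (TTCNNNGAA), a hypoxia response core (ACGTG) that shares bases with an AP-1 match (TGANTCA), a SMAD box (CAGAC) and a further AP-1 match. Both strands were searched in the 250 bases upstream of 35116 RefSeq starts. Of these, 18.5% held ACGTG, 38% CAGAC, 6.57% TGANTCA and 6.57% TTCNNNGAA. Among the 12 tested serpins with an entry, ACGTG was found in 3 (SERPINB6, SERPINE2 and SERPINB8), CAGAC in 4, TTCNNNGAA in 3 and TGANTCA in SERPINB8 only. None of these letters occurred upstream of SERPINB3 or SERPINB4 within this window. A match describes letters and not a site in use. SERPINB11 and SERPINF2 were the tested members without an entry.

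The clade B serpins of chromosome 6 changed by nearly the same small factor. SERPINB1, an inhibitor of neutrophil elastase and cathepsin G, stood at 65.8, 68.2 and 66.9 CPM in the dormant libraries and 115, 112 and 117 CPM in the activated libraries (1.71-fold, log2 fold change 0.77 ± 0.05 SE, adjusted p = 2.70e-09). SERPINB6, which inhibits trypsin-like proteases and cathepsin G, stood at 100.1, 103 and 102 CPM in the dormant libraries and 182, 166 and 168 CPM in the activated libraries (1.69-fold, log2 fold change 0.76 ± 0.05 SE, adjusted p = 5.08e-09). SERPINB9, the intracellular inhibitor of the killer-cell protease granzyme B, stood at 22.5, 18.5 and 27.5 CPM in the dormant libraries and 32.8, 41.8 and 37.5 CPM in the activated libraries (1.64-fold, log2 fold change 0.71 ± 0.12 SE, adjusted p = 9.08e-05). In each of these genes the groups did not overlap, and their log2 fold changes lay between 0.71 and 0.77. SERPINB9 had the widest spread, with dormant replicate 3 close to the lowest activated library. An antisense gene, SERPINB9-AS1, overlaps its span, and without strand, reads from any bases they share could not be told apart. In GENCODE, 1.42% of the 100-base windows of the longest coding SERPINB9 transcript occurred in another gene on either strand. Unnamed RefSeq genes also overlap the spans of SERPINB1, SERPINB8 and SERPINE2.

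The clade B members lie in clusters on chromosomes 6 and 18. Beside the counts of both clusters stand the shares of all tested genes, 36.5% higher and 37.2% lower. The chromosome 6 cluster holds 3 serpins over 139.5 kb, and all 3 rose. The chromosome 18 cluster holds 10 over 542.8 kb (63476958 to 64019779), of which 5 were tested. Those in the middle, SERPINB4, SERPINB3, SERPINB11 and SERPINB7, rose, SERPINB8 at the end fell, and SERPINB5, SERPINB12 and SERPINB10 had 0 counts in every library. SERPINB5, maspin, and SERPINB12 lie on the side of SERPINB4 away from SERPINB3, together with SERPINB13, which had 4 counts, all in activated replicate 3. SERPINB2, an inhibitor of urokinase, had 0 counts in the dormant libraries and 7, 6 and 0 in the activated libraries, so activated replicate 3 stood at 0 like the dormant ones. It was not tested under the filter used. Of the 3 nearest other genes on the side of SERPINB5, VPS4B fell (log2 fold change -0.83), BCL2 fell (-1.82) and KDSR did not pass (-0.08, adjusted p = 0.279). Of the 3 on the side of SERPINB8, CDH19 rose (1.85), DSEL fell (-1.46) and CDH7 did not pass (0.24, adjusted p = 0.667). Of the 3 nearest other genes on each side of the chromosome 6 cluster, GMDS (0.43) and BPHL (0.42) rose. WRNIP1 fell (-0.25), and MYLK4, NQO2 and RIPK1 did not pass.

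**Figure D4:**
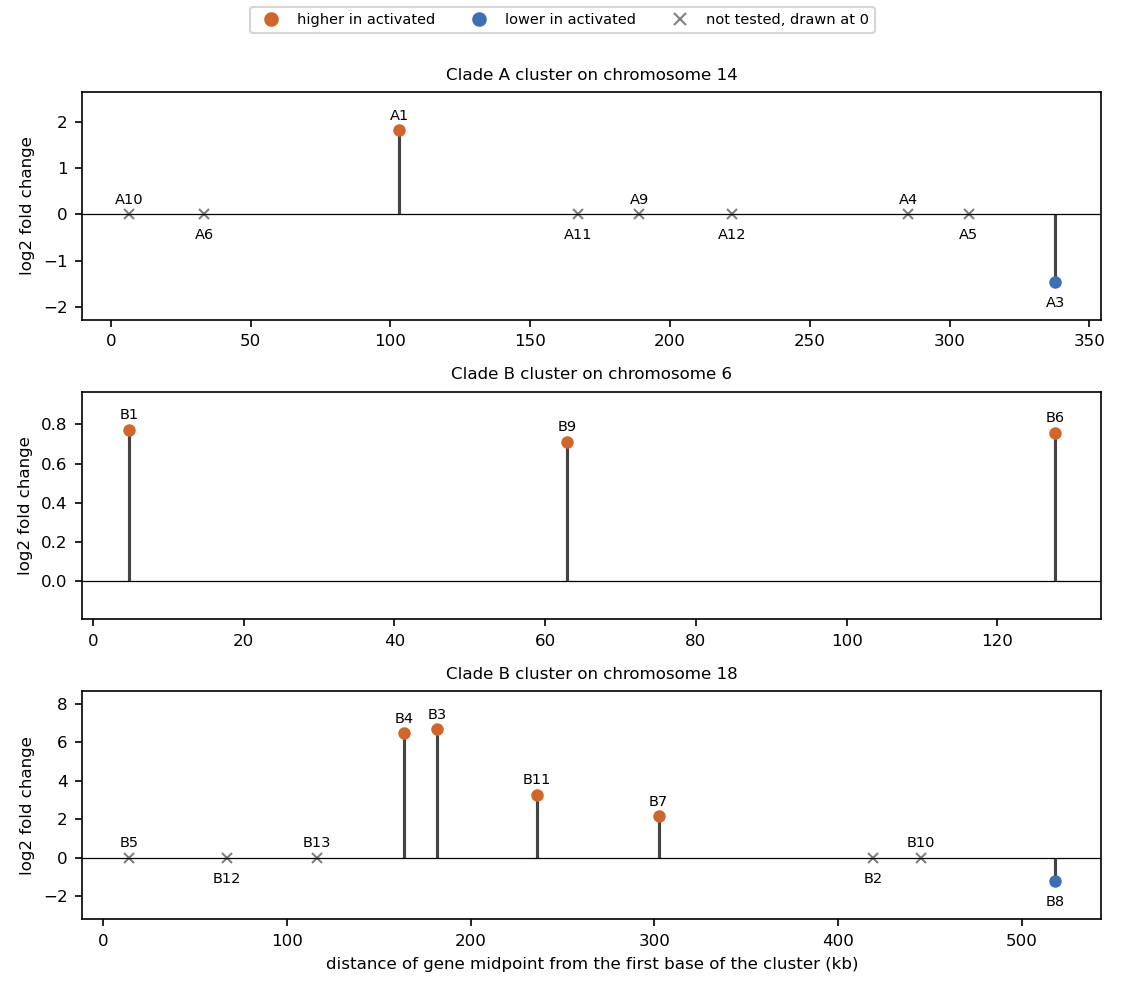
Log2 fold change, activated minus dormant, of each serpin against the distance of its midpoint from the first base of its cluster in kb, for the clade A cluster on chromosome 14 and the clade B clusters on chromosomes 6 and 18. Crosses at 0 are members that were not tested. The chromosome 6 members share a value near 0.7, and the chromosome 18 cluster runs from 6.67 at SERPINB3 to -1.21 at SERPINB8.

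The cathepsins, among which SERPINB3 has targets, moved in both directions. CTSG, which encodes cathepsin G, the target of SERPINB1 and SERPINB6 named above, had 0 counts in all libraries. Of the listed cathepsins and lysosomal proteases, 14 of 17 genes had enough counts to be tested, 3 rose, 7 fell and 4 did not pass (median log2 fold change -0.21). The share called was near the 73.7% of all tested genes. CTSB rose from 1220.0 ± 64.3 to 2560.4 ± 8.21 CPM, while CTSH fell from 28.4 ± 1.70 to 16.4 ± 0.791 CPM and CTSS from 158 ± 14.8 to 105 ± 4.80 CPM. CTSL, a main target of SERPINB3, which is named here after its values were seen, went from 925 ± 34.9 to 793 ± 31.0 CPM (a log2 fold change of -0.22 ± 0.05, SE, adjusted p = 8.96e-04). The FPKM ratio of SERPINB3 to CTSL was 0.00152, 0.00229 and 0.00185 in the dormant libraries and 0.183, 0.272 and 0.230 in the activated libraries, so the inhibitor transcript was the scarcer of the pair in all 6.

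The granule and cell death proteases moved in both directions. Of the granzymes, caspases and granule serine proteases, 10 of 19 genes had enough counts to be tested, 2 rose, 4 fell and 4 did not pass (median log2 fold change 0.02), where 73.7% of all tested genes were called. CASP1 fell from 2.98 ± 0.634 to 1.90 ± 0.316 CPM (adjusted p = 0.0324), and CASP9 rose from 9.90 ± 1.37 to 15.7 ± 1.73 CPM. The call for CASP1 was lost in 4 of 6 fits that left out a library (dormant replicates 2 and 3 and activated replicates 2 and 3, adjusted p up to 0.145) and with the replicate number as a block (0.0551). GZMB, the target of SERPINB9, had 1 count over all libraries.

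Of the 10 clade A members, 2 had enough counts to be tested, and they moved in opposite directions. The cluster on chromosome 14 holds 9 members over 343.6 kb, and SERPINA7 lies on the X chromosome. SERPINA1, alpha-1-antitrypsin, the plasma inhibitor of neutrophil elastase, had 0.695, 1.03 and 0.979 CPM in the dormant libraries and 3.42, 3.31 and 2.83 CPM in the activated libraries. The groups did not overlap, and the change was 3.53-fold (log2 fold change 1.82 ± 0.28 SE, adjusted p = 2.98e-05). SERPINA3, alpha-1-antichymotrypsin, an acute-phase inhibitor of cathepsin G, had 10.2, 9.95 and 8.44 CPM in the dormant libraries and 3.59, 2.45 and 4.45 CPM in the activated libraries. It fell 2.73-fold with no overlap (log2 fold change -1.45 ± 0.19 SE, adjusted p = 7.46e-06). In GENCODE another gene model on the same strand held 55.6% of the 100-base windows of the longest SERPINA3 transcript, so reads may have been shared and the level is uncertain. SERPINA5, the protein C inhibitor, had counts of 1, 1 and 1 in dormant and 11, 5 and 3 in activated libraries, a ratio of 6.98 (exact 95% binomial interval 2.05 to 36.8). SERPINA6, the corticosteroid-binding globulin, had 10, 12 and 7 counts in dormant and 0, 1 and 0 in activated libraries. SERPINA4, SERPINA9, SERPINA11 and SERPINA12 had 0 counts throughout, and SERPINA7 and SERPINA10 had 1 count each, in dormant replicate 2.

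Since most clade A serpins are liver products, 12 hepatocyte markers were read beside them. Of these, 6 were tested, 3 rose and 0 fell, where 36.5% of all tested genes were higher and 37.2% lower. The 3 that rose were the fibrinogen genes. FGB went from 1.80 ± 0.307 to 55.2 ± 3.70 CPM and FGG from 3.91 ± 1.40 to 69.9 ± 4.01 CPM. FGA, named here after its values were seen, went from 9.09 ± 1.96 to 103 ± 5.69 CPM. ALB, at 1.13 and 1.19 CPM, did not pass (adjusted p = 0.905). The summed level of the list was 13.9 to 21.9 CPM in the dormant libraries and 228 to 236 CPM in the activated libraries. Its part in the changes of SERPINA1 and SERPINA3 was not tested.

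SERPINF2, the plasmin inhibitor antiplasmin, was the tested member with no call. It had 3.13, 4.01 and 2.49 CPM in the dormant libraries and 1.78, 2.77 and 3.20 CPM in the activated libraries. The groups overlapped (log2 fold change -0.32 ± 0.26 SE, adjusted p = 0.291), and the 95% interval of the log2 fold change ran from -1.05 to 0.41, which reflects the spread between libraries. Counting error alone gave a narrower interval, with a ratio of 0.797 (exact 95% binomial interval 0.677 to 0.937). Its neighbour SERPINF1, which encodes the anti-angiogenic factor PEDF, had counts of 11, 3 and 1 in dormant and 3, 4 and 1 in activated libraries. SERPINC1, antithrombin, had 6 dormant and 4 activated counts. SERPIND1, heparin cofactor, had 1 count in all.

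SERPING1, the inhibitor of the complement proteases encoded by C1R and C1S, was near the limit of detection, with counts of 8, 10 and 7 in dormant and 3, 13 and 26 in activated libraries. Activated libraries lay both above and below the dormant ones, and the gene did not pass the filter. Of the listed complement genes, 15 of 17 genes had enough counts to be tested, 10 rose, 2 fell and 3 did not pass (median log2 fold change 0.51), against 36.5% higher and 37.2% lower among all tested genes. C1R rose from 134 ± 5.54 to 371 ± 6.53 CPM and C1S from 233 ± 20.4 to 391 ± 4.06 CPM, both given here after their values were seen. CFB, a protease of the alternative pathway, rose from 75.4 ± 6.12 to 221 ± 10.4 CPM (a log2 fold change of 1.55 ± 0.06, SE, adjusted p = 1.53e-11). MASP2, a lectin pathway protease, had 44 dormant and 0 activated counts and was tested only because of its dormant libraries.

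SERPINH1 encodes a collagen chaperone of the endoplasmic reticulum and does not inhibit proteases. Its transcript stood at 123, 117 and 121 CPM in the dormant libraries and 174, 199 and 188 CPM in the activated libraries. The groups did not overlap, and the change was 1.56-fold (log2 fold change 0.64 ± 0.06 SE, adjusted p = 7.61e-08). The gene is known as a heat shock gene, and its upstream sequence is shown for that reason (GRCh38.p14, RefSeq, chr11:75562003-75562252, plus strand, written 5′ to 3′).
SERPINH1: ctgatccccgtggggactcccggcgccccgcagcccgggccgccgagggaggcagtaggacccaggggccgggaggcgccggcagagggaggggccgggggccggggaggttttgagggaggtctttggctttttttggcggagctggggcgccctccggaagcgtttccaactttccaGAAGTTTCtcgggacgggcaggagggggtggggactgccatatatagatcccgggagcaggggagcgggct
Capitals mark the 1 match to a heat shock unit (GAANNTTC), which starts 71 bases before the transcript start. The same letters were found upstream of SERPINB7, the only other tested serpin with a match, and of 5.78% of all RefSeq starts.

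Most collagen genes and collagen-handling enzymes rose beside SERPINH1. Of the listed collagens and collagen folding and modifying enzymes, 34 of 37 genes had enough counts to be tested, 28 rose, 4 fell and 2 did not pass (median log2 fold change 0.84), where 36.5% of all tested genes were higher and 37.2% lower. COL5A1, a fibrillar collagen, went from 118 ± 10.9 to 880.5 ± 123 CPM (a log2 fold change of 2.90 ± 0.09, SE, adjusted p = 1.24e-12) and COL13A1, a transmembrane collagen, from 0.457 ± 0.239 to 3.59 ± 0.506 CPM. COL13A1 passed the filter in 2 dormant and 3 activated libraries, and so was tested because of its activated ones. TMEM38B, an ion channel of the endoplasmic reticulum needed for collagen synthesis, fell from 49.7 ± 2.11 to 16.7 ± 1.19 CPM (adjusted p = 7.46e-11). Relative to P4HB, a subunit of the collagen prolyl hydroxylase, the FPKM ratio of SERPINH1 was 0.162, 0.156 and 0.157 in the dormant and 0.105, 0.128 and 0.115 in the activated libraries.

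SERPINI1, neuroserpin, an inhibitor of the tissue-type plasminogen activator, was scarce. It had 0.721, 0.797 and 1.01 CPM in the dormant libraries and 1.49, 2.05 and 1.40 CPM in the activated libraries. The groups did not overlap and the change was 1.96-fold (log2 fold change 0.97 ± 0.33 SE, adjusted p = 0.0166). This call was lost without dormant replicate 2 (adjusted p = 0.0527) or activated replicate 2 (0.0857). SERPINI2, its relative on the same chromosome, had 0 counts in all libraries.

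Summed over the 33 rows described here, serpin FPKM was 209.9, 216 and 211 in the dormant and 435, 520.0 and 482 in the activated libraries, so each activated library held more than any dormant one. Clade B made up 32.4, 32.3 and 33.2% of this sum in dormant and 59.4, 62.1 and 60.7% in activated libraries. SERPINB3 and SERPINB4 together went from 0.822, 1.21 and 1.21% to 38.1, 45.0 and 41.8%. SERPINE2 made up 39.9, 41.3 and 40.2% in dormant and 24.7, 22.8 and 23.7% in activated libraries, and SERPINH1 23.7, 22.3 and 23.3% and 14.8, 14.2 and 14.5%. Clade A went from 2.98, 2.96 and 2.53% to 0.673, 0.431 and 0.649%. By mean FPKM the leading dormant serpins were SERPINE2 (86.0 ± 2.94, SD, n = 3), SERPINH1 (49.0 ± 0.846), SERPINB1 (22.5 ± 0.611) and SERPINB6 (20.7 ± 0.464). In activated cells they were SERPINE2 (113 ± 5.49), SERPINB3 (106 ± 17.2) and SERPINB4 (94.0 ± 16.9). The activated levels of SERPINE2 and SERPINB3 did not differ beyond their spread, while SERPINB3 stood above SERPINB4 within each activated library, by a mean count ratio of 1.14 ± 0.0315 (SD, n = 3).

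**Figure D5:**
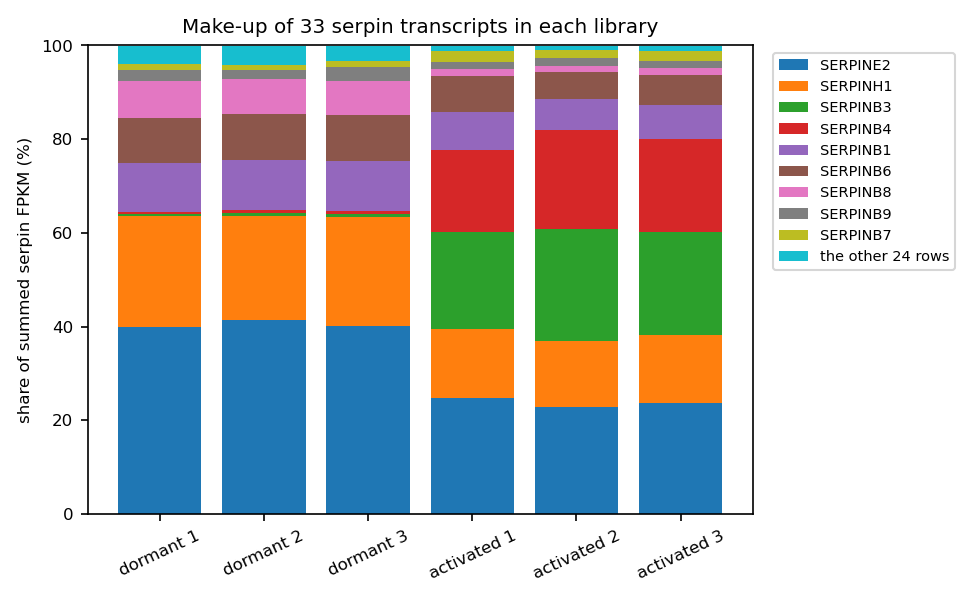
Share of summed serpin FPKM (in %) taken by each of the 9 members described here with the highest mean activated FPKM and by the other 24 rows, in each library. SERPINA3, at 2.32% to 2.79% in the dormant libraries, is among the other rows. SERPINE2 has the largest share in the dormant libraries, at 39.9% to 41.3%, and the shares of SERPINB3 and SERPINB4, barely visible there, reach 17.6% to 23.8% each in the activated libraries.

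Protease inhibitors outside the family moved in both directions. Of the listed inhibitors that are not SERPIN symbols, 25 of 40 genes had enough counts to be tested, 12 rose, 7 fell and 6 did not pass (median log2 fold change 0.16). The share called was close to that of all tested genes, 73.7%. SPINK6, a Kazal-type inhibitor of kallikreins, rose from 0.170 ± 0.0590 to 7.13 ± 1.24 CPM and was tested only because of its activated libraries, and BIRC5, an inhibitor of apoptosis that also acts in mitosis, rose from 22.6 ± 0.735 to 87.0 ± 2.34 CPM. CSTA, a cytosolic cysteine protease inhibitor, fell from 0.920 ± 0.447 to 0.325 ± 0.0610 CPM (adjusted p = 0.0127), a call lost without dormant replicate 1 (adjusted p = 0.0959). CSTA passed the filter in 3 dormant and 2 activated libraries, and so was tested because of its dormant ones. AGT encodes angiotensinogen, a serpin by fold whose symbol keeps it out of the rows taken. It is counted among these rises and named here after its values were seen. AGT went from 0.394 ± 0.439 to 1.08 ± 0.315 CPM (adjusted p = 0.0414), but its groups overlapped. It passed the filter in 1 dormant library and 3 activated libraries, and so was tested because of its activated ones.

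Membrane-anchored serine proteases and kallikreins mostly had too few counts to be tested, and 8 of them had 0 counts in all libraries. Of the list, 6 of 32 genes had enough counts to be tested, 2 rose, 2 fell and 2 did not pass (median log2 fold change -0.15). Among all tested genes 73.7% were called, with 36.5% higher and 37.2% lower. PRSS23, a secreted serine protease, rose from 169.8 ± 2.85 to 433 ± 18.8 CPM, as FURIN did, and PRSS22 fell from 1.66 ± 0.204 to 0.147 ± 0.151 CPM. PRSS22 passed the filter in 3 dormant libraries and 1 activated library, and so was tested because of its dormant ones. Of the receptors that clear serpin and protease complexes, 10 of 11 genes had enough counts to be tested, 6 rose, 2 fell and 2 did not pass (median log2 fold change 0.29). Beside these counts stand the same shares of all tested genes, 36.5% higher and 37.2% lower. SDC1, a heparan sulphate proteoglycan, rose from 142 ± 5.17 to 455 ± 26.2 CPM and LRP1, the main endocytic receptor of complexes of serpins with proteases, from 188 ± 15.9 to 445 ± 88.8 CPM (adjusted p = 8.41e-08).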

How the data were processed

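The members and gene lists were chosen with earlier results of these data known. Of the 34 rows 1 is not reported here, nor are a few listed genes, though these were in the fits and in the list counts. The authors deposited a table of whole-number counts per gene and a table of FPKM, and the FPKM were found to be those counts scaled by gene length and library total. The submitters' processing notes name fastp, HISAT2, HTSeq and GRCh38. The sources used here give no versions, annotation, strand setting or read length.

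All genes of the count table were fitted by quasi-likelihood in edgeR 4.0.16 (R 4.3.3), with TMM factors, the default filter on low counts (at least 0.278 CPM, which is 10 counts at the median depth, in at least 3 libraries), Benjamini-Hochberg adjustment over all tested genes and a threshold of 0.05. CPM are TMM-normalised, and mean ± SD is over 3 libraries. Standard errors are |log2 fold change| over √F, and intervals of fold changes use 4 residual degrees of freedom. Counts were also simulated for the 13336 genes of this comparison, with 50 genes changed at each of 4 sizes. The test recovered 44%, 68%, 82% and 100% of genes changed 1.2-fold, 1.5-fold, 2-fold and 4-fold, and 12 of 159 calls were false. Far fewer genes were changed there than the 9830 called in the real counts, so these rates may not carry over. Intervals of count ratios are exact 95% binomial intervals. These, and the 3 counts that a count of 0 allows, reflect counting error alone.

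All serpins with at least 1 CPM in either group are named with values, and from each list the 2 largest changes in the majority direction and the 1 largest in the other. Alternatives were size factors of DESeq2, upper-quartile factors or total counts, DESeq2 1.42.0, limma 3.58.1 (voom, or log2(FPKM + 1) and log2(FPKM + 0.1)), other filters, SERPINB3 and SERPINB4 summed, a replicate block and leaving out each library. All 33 symbols matched RefSeq (GRCh38.p14) and 27 had a promoter entry. Sequences were aligned with Biopython 1.88. Deviations from the group mean correlated at 0.0125, 0.0195 and 0.0121 between libraries sharing a number, and at -0.0164 to 0.00447 between the others. The highest values were thus those of shared numbers, but all were small. Numbers were not taken as pairs in the main fit, which does not settle whether libraries were paired. Replicate libraries differed by more than sampling noise (chi-square per degree of freedom of at least 4.82).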

Additional observations from a re-analysis of the deposited data

How the results depend on the processing

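The count of changed genes was 9830 and ranged from 9109 to 10009 with other scalings, tools, filters or units, and between 9298 and 9756 when 1 library was left out. The count of serpins that rose was 11 and lay between 10 and 13, and that of serpins that fell was 2 and lay between 2 and 3. Without a filter on low counts SERPINA5 and SERPINB2 were added to the rises and SERPINA6 to the falls. Of 247 values of the 14 tested serpins under the alternatives, 245 had the same direction and call, and the other 2 were those of SERPINI1 given above. Of 659 values of 38 listed genes, 13 lost a call and none reversed. Total counts moved the share of higher among changed genes from 49.5% to 39.7%, with 3941 higher and 5998 lower. The difference in log2 ratio of SERPINB3 to SERPINB4 was between -0.031 and 0.35 when 1 library was left out, and reversed to -0.031 without dormant replicate 3; the cause was not tested. With the replicate number as a block it was 0.19 (exact permutation p = 0.75), and 9789 genes, 11 serpins higher and 2 lower passed, so the block changed no serpin call. On the log2(FPKM + 1) scale the change of SERPINB3 was 5.64, by construction smaller for low genes. Depth limited SERPINB11 and the 11 members with too few counts.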
